A study of Mus musculus with 4 samples.

Results

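Replication-dependent histone genes encode the core histones H2A, H2B, H3 and H4 and the linker histone H1, and in the mouse they lie in loci called Hist1 to Hist4. The members described here are the open-chromatin peaks that the authors' annotation assigned to a gene of these loci (symbols beginning Hist1h to Hist4h). There were 150 such peaks among 417506 called in 4 ATAC-seq libraries, 36 in vehicle library 1, 42 in vehicle library 2, 37 in activin library 1 and 35 in activin library 2. ATAC-seq measures open chromatin by the insertion of sequencing adapters with a transposase.

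All libraries were made from LβT2 cells (LbT2 as the source and LbT2b in the sample titles), a mouse pituitary line that resembles the gonadotrope, the cell that makes the gonadotropins. Wells of 350000 cells were kept overnight in serum-free DMEM, per the labels, and 50000 cells went into each reaction. The vehicle group (2 libraries) received vehicle for 6 h and the activin group (2 libraries) activin A at 1 nM for 6 h. Activin A is a ligand of the TGF-β family that acts on gonadotropes. The labels name no genetic change, and nothing in them says that the replicates were separate cultures, so p-values measure the spread between these libraries, which may be technical.

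Histone genes of this class are short, mostly without introns, and are transcribed mainly in S phase, when new nucleosomes are assembled on replicated DNA. Their transcripts end in a stem-loop in place of a poly(A) tail, bound by the protein Slbp, and the factor Npat assembles at their promoters in nuclear histone locus bodies. Many H2A and H2B genes stand head to head and share the short DNA between their starts.

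The libraries held 275983526 to 375610146 total reads, of which 172146474 to 224226184 were high-quality autosomal reads. Between 6.93 and 11.1% of these lay in the library's own peaks. Vehicle library 2 stood apart in its list, with 178358 peaks against 70692 to 85112 in the other libraries. Enrichment of reads at start sites was 2.72 and 2.48 with vehicle, and with activin 3.12 and 3.04. Of the gonadotrope markers with a start site in the reference table, Cga, Gnrhr, Foxl2 and Gata2 lay under a peak in all 4 libraries, Lhb in 3 and Fshb in none. Of 5 markers of other pituitary cells, 4 lay under a peak in no library and Pomc in 2, and 3 fibroblast and blood cell markers lay under none.

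The promoters of these genes carry elements that differ by histone type, and the stretches below show them for genes with and without a peak. The sequences are from RefSeq (GRCm38.p6), read 5′ to 3′ on the gene's strand up to the base before the start, and capitals mark exact matches, on either strand, to 5 motifs. The TATA box, at which transcription complexes form, was searched as TATAAA. The second motif was the CCAAT box, by its name. The octamer, known from H2B promoters, was searched as ATTTGCAT. The AC box, known from promoters of linker histones, was searched as AAACACA. For the site II element of H4 promoters the core searched was GGTCCG. Matches of different motifs were counted separately, also where they overlap. The first 2 stretches are the whole DNA between the starts of head-to-head pairs that lay under 1 peak in every library, at chr13:22035644-22035820 (minus strand) and chr13:23683960-23684198 (minus strand).
Hist1h2ah to Hist1h2bk: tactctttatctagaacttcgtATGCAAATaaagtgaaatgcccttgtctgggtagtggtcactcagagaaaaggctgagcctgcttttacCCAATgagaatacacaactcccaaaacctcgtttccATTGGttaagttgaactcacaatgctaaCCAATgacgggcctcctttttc
Hist1h2ac to Hist1h2bc: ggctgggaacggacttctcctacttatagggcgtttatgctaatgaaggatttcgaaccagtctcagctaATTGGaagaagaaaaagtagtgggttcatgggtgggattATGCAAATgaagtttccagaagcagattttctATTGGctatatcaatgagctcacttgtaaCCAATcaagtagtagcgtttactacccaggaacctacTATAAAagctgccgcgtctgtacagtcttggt

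The next stretch is the DNA between the starts of a pair that lay under no peak in any library, at chr13:21753913-21754075 (minus strand).
Hist1h2ak to Hist1h2bn: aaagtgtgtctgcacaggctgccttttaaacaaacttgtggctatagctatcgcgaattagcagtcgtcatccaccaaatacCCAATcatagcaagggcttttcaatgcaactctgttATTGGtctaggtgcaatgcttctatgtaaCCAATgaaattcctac

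An H4 and an H1 promoter under a peak in all libraries are shown with 1 of the same type under none, because the type's own element is present in each. They are Hist1h4d (chr13:23581418-23581567, plus strand, peak) and Hist1h4n (chr13:21832198-21832347, minus strand, no peak), then Hist1h1c (chr13:23738657-23738806, plus strand, peak) and Hist1h1e (chr13:23622559-23622708, minus strand, no peak).
Hist1h4d: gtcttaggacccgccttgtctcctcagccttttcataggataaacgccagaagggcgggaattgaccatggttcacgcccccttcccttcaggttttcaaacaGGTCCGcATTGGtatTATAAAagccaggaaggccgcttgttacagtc
Hist1h4n: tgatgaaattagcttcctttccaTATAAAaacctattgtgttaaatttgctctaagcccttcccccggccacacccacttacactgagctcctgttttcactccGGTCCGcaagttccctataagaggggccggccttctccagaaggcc
Hist1h1c: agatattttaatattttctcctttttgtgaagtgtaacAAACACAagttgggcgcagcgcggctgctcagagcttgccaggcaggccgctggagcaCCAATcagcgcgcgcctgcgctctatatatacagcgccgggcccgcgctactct
Hist1h1e: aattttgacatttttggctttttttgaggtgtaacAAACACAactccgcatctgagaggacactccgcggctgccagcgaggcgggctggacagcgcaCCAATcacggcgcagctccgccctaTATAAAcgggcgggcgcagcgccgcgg

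Of the 70 histone genes in the RefSeq table, 62 had a promoter window, which runs from 250 bases before the start to 50 from it. The H4 core was in 11 of 12 H4 windows and in 8.39% of all 27025 windows. In these H4 genes its match nearest to the start began at positions -47 to 6 from the start, with a median of -46. The H1 AC box was in 5 of 6 H1 windows and in 7.14% of all windows, beginning at positions -122 to -112 from the start. All 6 H1, 18 H2A, 16 H2B and 10 H3 windows held a CCAAT box, against 3 of 12 H4 windows and 37.9% of all windows. The octamer was in 7 of 16 H2B and 7 of 18 H2A windows, many of which cover the same DNA from opposite sides, in no window of the other types, and in 1.75% of all windows. TATAAA was in 56.5% of the histone windows and 14.2% of all windows, on either strand and at any place in the window. On the gene's own strand 30 histone windows held it, and in 12 of these it started 40 to 20 bases before the start.

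**Figure D1:**
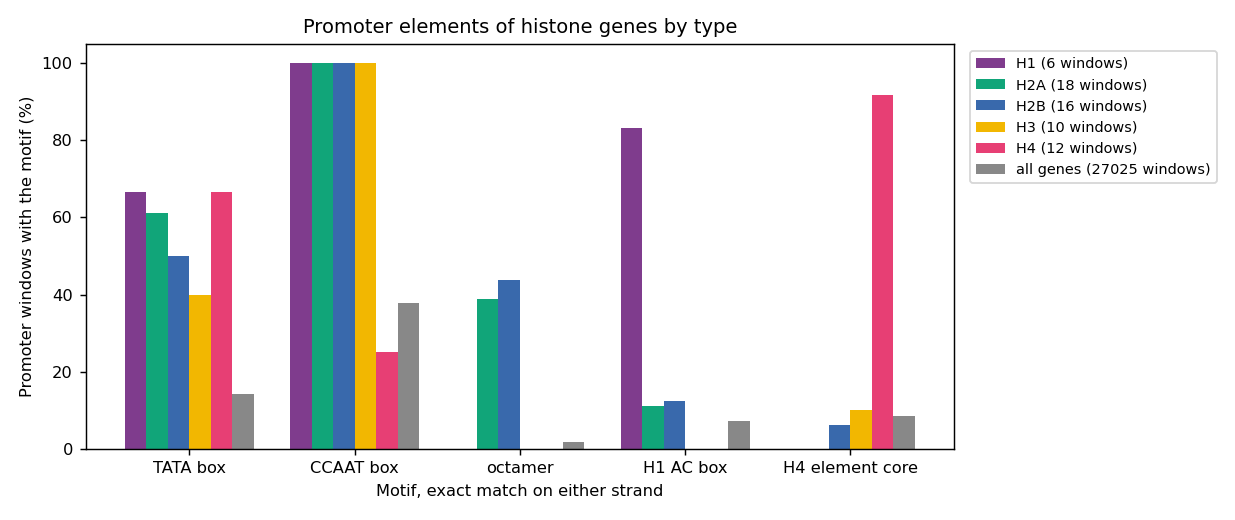
Share of promoter windows (%, from 250 bases before to 50 after the start) that hold each motif on either strand, by histone type and over all 27025 windows of the table. The H4 bar stands highest for the H4 element core (11 of 12 windows) and the H1 bar for the H1 AC box (5 of 6 windows).

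The TATA and CCAAT letters were present with and without a peak. TATAAA was in 20 of 37 windows whose start lay under a peak in all libraries and in 14 of 24 whose start lay under none. A CCAAT box was in 30 of the 37 and in 22 of the 24. Median GC content was 44% in the first set and 46.5% in the second. These are descriptions of letters, not of bound factors.

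The start sites fell into those with a peak in every library and those with none. Of the 70 genes, 42 had the start under a peak in all 4 libraries, 27 in none, and only Hist1h2ab (H2A) was mixed, under a peak in all but vehicle library 2. Among the 67 protein-coding histone genes 40 were covered in all libraries, 59.7%, beside 49.3% of the 16457 protein-coding autosomal genes of the table, and 26 were covered in none, beside 40.2% of all. The 16457 genes all had a promoter entry. Histone genes without one took the start from a nearby peak's annotated distance or from either gene end, which can favour coverage. Of the 62 histone genes with a promoter entry 37 were covered in all libraries and 24 in none. Without vehicle library 2, 43 genes were covered in the 3 others and 27 in none, an alternative chosen after seeing the data. Covered starts numbered 43 and 42 with vehicle, and with activin 43 and 43 (42.5 ± 0.707 against 43 ± 0, SD, n = 2; exact permutation test, 2-sided, p = 1, adjusted p = 1 over 3 such tests, where the smallest p that 2 against 2 allows is 0.333).

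By histone type, 3 of 6 H1, 9 of 20 H2A, 12 of 19 H2B, 8 of 12 H3 and 10 of 13 H4 genes were covered in every library. By locus, all 3 Hist3 genes (Hist3h2a, Hist3h2ba and the pseudogene Hist3h2bb-ps), the single Hist4 gene Hist4h4 and 38 of 56 Hist1 genes were covered in every library. None of the 10 Hist2 genes was covered in any, and no peak of any library carried a Hist2 name. These were Hist2h2ab, Hist2h2ac, Hist2h2aa1 and Hist2h2aa2 (H2A), Hist2h2be and Hist2h2bb (H2B), Hist2h3b, Hist2h3c1 and Hist2h3c2 (H3) and Hist2h4 (H4).

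The uncovered genes were grouped along the chromosome. All 10 Hist2 genes lay in a stretch of 121.586 kb without a peak in any library, chr3:96181902-96303487, together with 3 other genes. Of 5797 peak-free stretches of chromosome 3, 272 (4.69%) were as long or longer, and their median length was 8532 bp. In Hist1, 12 neighbouring genes lay in a stretch of 106.742 kb without a peak, chr13:21752601-21859342. They were the H2A genes Hist1h2ak, Hist1h2an, Hist1h2ao and Hist1h2ap, the H2B genes Hist1h2bn, Hist1h2bp, Hist1h2bq and Hist1h2br, the linker gene Hist1h1b, Hist1h3i, and the H4 genes Hist1h4m and Hist1h4n. On chromosome 13, 188 of 6122 such stretches (3.07%) were as long. These shares count stretches and not bases. A long stretch has room for more genes than a short one, so they do not say how often a gene lies in one.

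A further 5 genes were uncovered. Hist1h1e, which encodes a linker histone found in most tissues, lay in a stretch of 37.2 kb without a peak. The testis linker gene Hist1h1t lay in a stretch of 6.67 kb. The testis pair Hist1h2ba (H2B) and Hist1h2aa (H2A) lay in a stretch of 11.3 kb. The pseudogene Hist1h2al, far downstream of the other Hist1 genes, started 15 bp outside a peak.

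Some of the uncovered promoters are near-copies of each other. In the peak-free stretch of Hist1, 6 of 12 promoter windows shared an exact run of at least 100 bases with another gene's window, and so did 4 of the 8 Hist2 windows. The other 10 of these 20 windows shared a run of at most 28 bases. Of the 37 windows covered in all libraries none shared a run of 100 bases, and the longest was 72, between Hist1h4j and Hist1h4k. The windows of the H2B genes Hist1h2bq (chr13:21810200-21810449, minus strand) and Hist1h2br (chr13:21833493-21833742, plus strand) are the same over all 300 bases, of which the 250 before the start are shown, with capitals for CCAAT on either strand.
Hist1h2bq and Hist1h2br: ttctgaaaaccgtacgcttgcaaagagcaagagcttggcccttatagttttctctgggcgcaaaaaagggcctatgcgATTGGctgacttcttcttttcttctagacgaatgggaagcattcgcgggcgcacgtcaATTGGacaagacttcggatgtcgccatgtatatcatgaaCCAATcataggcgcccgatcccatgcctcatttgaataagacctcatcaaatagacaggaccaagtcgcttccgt

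The H2A genes Hist2h2aa1 (chr3:96245347-96245496, plus strand) and Hist2h2aa2 (chr3:96240375-96240524, minus strand) share 219 bases, shifted against their starts, and the stretches below have 110 bases in common.
Hist2h2aa1: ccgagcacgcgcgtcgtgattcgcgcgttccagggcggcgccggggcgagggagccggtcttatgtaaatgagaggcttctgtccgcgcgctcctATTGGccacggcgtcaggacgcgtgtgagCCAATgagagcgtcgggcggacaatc
Hist2h2aa2: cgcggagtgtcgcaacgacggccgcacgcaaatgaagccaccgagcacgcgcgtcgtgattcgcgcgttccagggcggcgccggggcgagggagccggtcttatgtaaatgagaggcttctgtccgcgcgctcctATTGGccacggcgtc

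The quality report leaves out low-quality alignments, and whether reads from near-identical copies were lost before peak calling was not tested.

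Within the Hist1 locus, which spans 2.22 Mb, the covered genes were concentrated. Splitting it at gaps of over 100 kb gave 4 blocks on chromosome 13. The first, from Hist1h2bl to Hist1h2br, had 7 of 19 genes covered in all libraries and 12 in none. All 5 genes of the second, from Hist1h2ah to Hist1h2bj, were covered. The third, from Hist1h4h to Hist1h1a over 233.369 kb, had 26 of 29 covered in all libraries and 2 in none. The last held the testis pair. Of the 58 other genes in the same span, 4 were covered in all libraries and 51 in none, and the latter held all 33 vomeronasal receptor genes, which encode pheromone receptors of sensory neurons.

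**Figure D2:**
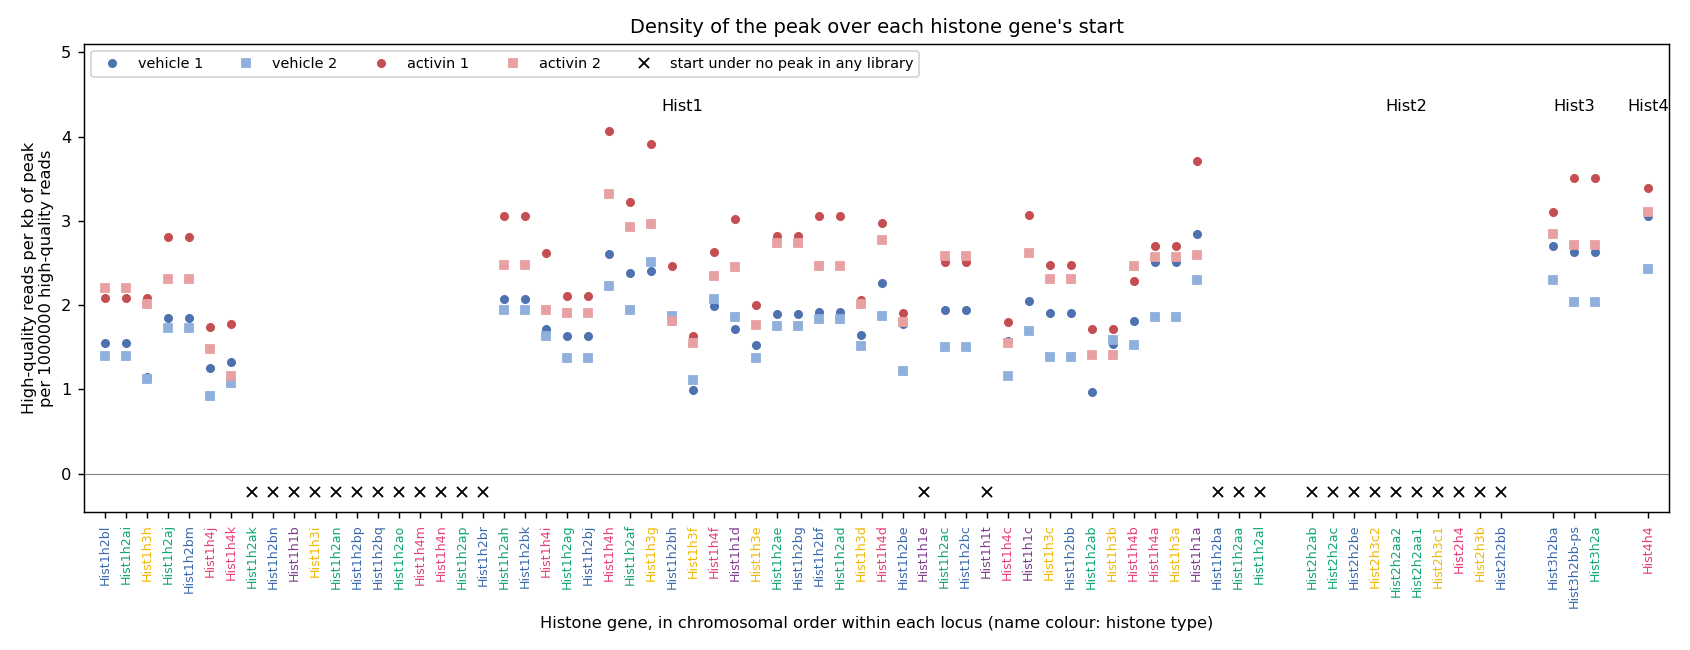
High-quality reads per kb of peak per 1000000 high-quality reads for the peak over each of 70 histone starts, in chromosomal order within each locus, with 1 point per library (vehicle 1 and 2 in blue, activin 1 and 2 in red; name colours stand for histone types). Crosses mark the 27 starts under no peak in any library, among them all 10 Hist2 genes and 12 neighbours in Hist1; genes sharing a peak show the same values.

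Peaks over histone starts were strong by the authors' peak statistics. Of the histone-named peaks 88.9 and 78.6% with vehicle, and with activin 83.8 and 91.4%, had a −log10 q of at least 5, beside 14.9, 7.15, 23.3 and 22.4% of all peaks of the same libraries. Peaks over a histone start numbered 33, 32, 31 and 32, with a median −log10 q of 12.5, 12.3, 24.0 and 15.7, against 9.72, 8.02, 16.6 and 12.9 for peaks over any RefSeq start. Their median fold over the peak caller's background was 4.07, 3.83, 4.09 and 4.19, against 3.59, 3.13, 3.89 and 3.93. Both measures were higher for the histone peaks in 4 of 4 libraries. A −log10 q of at least 5 was reached by 97.0, 100, 100 and 100% of the peaks over a histone start. Among peaks over any RefSeq start, the closer comparison, it was reached by 74.4, 66.2, 86.5 and 83.4%.

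The density of high-quality reads went the other way. It is given throughout as high-quality reads per kb of the called peak per 1000000 high-quality reads. Its median over histone-start peaks was 1.84 and 1.71 with vehicle, and with activin 2.64 and 2.40. Over all peaks at a RefSeq start it was 2.92, 2.44, 3.30 and 3.23. In each library the histone median was the lower, and 32 of 33, 31 of 32, 26 of 31 and 31 of 32 histone-start peaks lay under the median of all start peaks. Which alignments entered the authors' q and fold is not given in the sources used here. Some peaks named for Hist1h2al were called over 0 high-quality reads, so those calls did not rest on the reads counted in the density. What sets the measures apart at histone starts was not tested.

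Among single genes the H4 gene Hist1h4h had the highest mean density, 2.61 and 2.23 with vehicle, then 4.06 and 3.31 with activin. The H3 gene Hist1h3f had the lowest, 0.995 and 1.11 with vehicle, then 1.64 and 1.55 with activin. The lowest value of Hist1h4h lay above the highest of Hist1h3f. Hist4h4, the H4 gene of its own locus, was second, at 3.05 and 2.43 with vehicle, then 3.39 and 3.11 with activin. Its mean of 2.99 lay within the spread of Hist1h4h, so these leading genes could not be ranked.

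Among the Hist1 genes covered in all 4 libraries every type spanned a range. The linker genes ran from Hist1h1d (mean of 4 libraries 2.26) to Hist1h1a (2.86). H2A genes ran from Hist1h2ag (1.76) to Hist1h2af (2.62) and H2B genes from Hist1h2be (1.68) to Hist1h2bk (2.39). Both H3 and H4 covered a wider range, with H3 from Hist1h3f (1.32) to Hist1h3g (2.95) and H4 from Hist1h4k (1.34) to Hist1h4h (3.06). The Hist3 genes lay in the upper part, Hist3h2ba at 2.74 and the pair Hist3h2a and Hist3h2bb-ps, which shared a peak, at 2.72.

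Most histone-named peaks were annotated to a promoter or an exon. Of the histone-named peaks 20, 17, 14 and 14 were annotated to a promoter, 11, 10, 12 and 13 to an exon, 1, 5, 4 and 4 to a transcript end, and 4, 9, 7 and 4 to intergenic DNA, with 1 intronic peak in vehicle library 2. An exon label did not mean that the start was outside the peak. Hist4h4 and Hist1h4i were labelled exon in vehicle library 1 with the start inside the peak.

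Peaks over a single histone start reached further into the gene than upstream of it. Their centres lay a median of 164 and 207 bp (vehicle) or 224 and 218 bp (activin) downstream of the start, and 90 to 95.5% of the centres were downstream. For all RefSeq starts under a peak the median centre was 45.5 to 52.5 bp downstream, with 59.3 to 61.0% of the centres on that side. That set was not limited to peaks over a single start. For histone starts that shared a peak the median centre lay upstream, at -120 and -111 bp (vehicle) or -105 and -119 bp (activin). Of those centres 0 and 15.8% (vehicle) or 22.7 and 9.52% (activin) were downstream. H4 peaks held the whole gene in 8, 8, 9 and 9 of 9 cases. The linker genes Hist1h1c and Hist1h1d had peaks of 1312 to 1565 bp, whereas the peaks at Hist1h1a measured 503 to 842 bp.

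**Figure D3:**
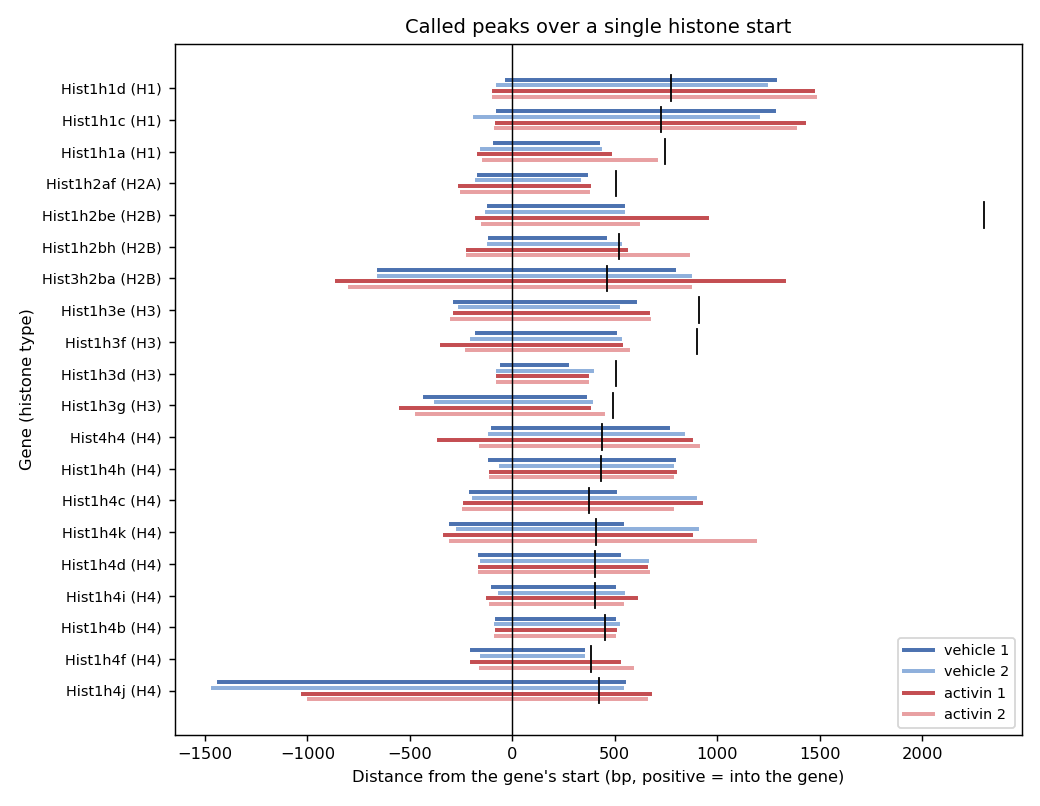
Extent of the called peak around the start (0 bp, positive into the gene) for the 20 genes whose peak held no other histone start in any library, with 1 line per library (vehicle in blue, activin in red) and a black tick at the gene's end. H4 peaks mostly run past the gene's end, and the upstream side is longest at Hist1h4j and Hist3h2ba.

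Neighbouring histone genes often lay under 1 peak. Peaks over at least 2 histone starts numbered 10 and 10 with vehicle, then 11 and 11 with activin, and they held 20, 20, 23 and 22 of the covered genes. The groups did not overlap (10 ± 0 against 11 ± 0, SD, n = 2), and the exact 2-sided permutation p of 0.333 is the smallest this design allows (adjusted p = 1 over 3 such tests). The added peak with activin was the one over Hist1h2ab and Hist1h3b, described below. Peaks over several starts were not counted for all RefSeq genes, so this difference is not shown to be particular to histone genes. Shared peaks had median widths of 1132 and 1235 bp with vehicle, then 1414 and 1315 bp with activin. Peaks over 1 start measured 677 and 764 bp against 910 and 885 bp. Peaks over any RefSeq start were also wider in the activin libraries, at 927 and 868 bp against 786 and 812 bp.

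**Figure D4:**
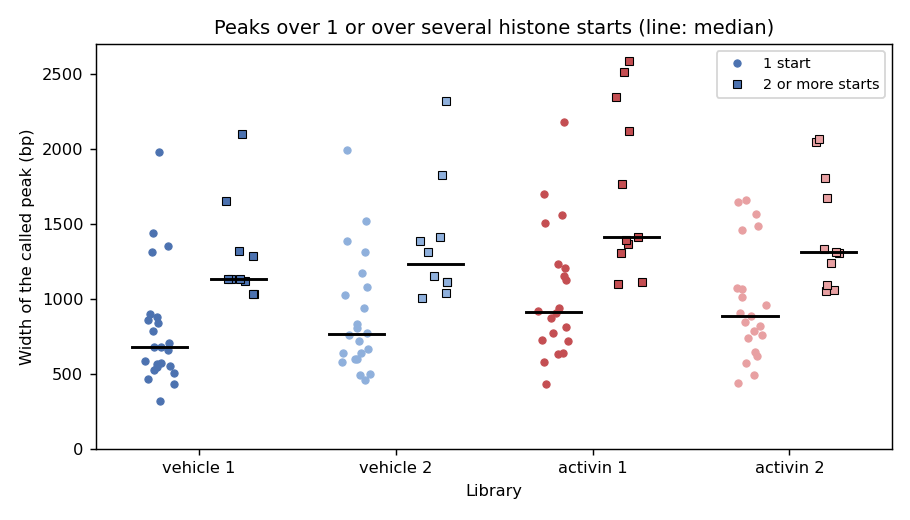
Width (bp) of each called peak over 1 histone start (circles) or over 2 or more (outlined squares) in the 4 libraries, with the median as a line. The medians for shared peaks are 1132, 1235, 1414 and 1315 bp, each above the median of peaks over 1 start in the same library.

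Most of the sharing came from head-to-head H2A and H2B genes. Among genes whose strand was set there were 13 such pairs, with 164 to 281 bp between the starts. The 3 genes without a set strand were left out of this search. They include the uncovered H2B gene Hist2h2be, which lies beside the start of the uncovered H2A gene Hist2h2ac. In 8 of them both starts lay under the same peak in all 4 libraries, and in the other 5 neither start was covered in any, so no pair was split. The shared pairs were Hist1h2ac and Hist1h2bc, Hist1h2ae and Hist1h2bg, Hist1h2ag and Hist1h2bj, Hist1h2ah and Hist1h2bk, Hist1h2aj and Hist1h2bm, Hist1h2ad and Hist1h2bf, Hist1h2ai and Hist1h2bl, and Hist3h2a and Hist3h2bb-ps. Hist1h2aj, like Hist3h2bb-ps, is listed as a pseudogene, and the starts of both were taken from the annotated distance of these peaks. The authors' fold over background was highest among these pairs at Hist1h2ac and Hist1h2bc in 3 libraries (6.29 in vehicle library 1, 5.95 and 7.26 with activin) and at Hist1h2ah and Hist1h2bk in vehicle library 2 (5.76). The DNA between the starts of both pairs is shown above. The uncovered pairs were the 4 in the peak-free stretch of Hist1 and the testis pair, whose H2B promoter (Hist1h2ba, chr13:23934157-23934406, minus strand) is shown because it holds the octamer, CCAAT and TATAAA letters of the covered genes.
Hist1h2ba: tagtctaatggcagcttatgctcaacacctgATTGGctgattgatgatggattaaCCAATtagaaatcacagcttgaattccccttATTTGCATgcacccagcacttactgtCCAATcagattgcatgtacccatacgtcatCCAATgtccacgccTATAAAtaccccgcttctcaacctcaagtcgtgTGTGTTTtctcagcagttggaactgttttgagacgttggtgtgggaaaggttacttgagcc

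A further 2 groups shared a peak in all libraries, Hist1h3c with Hist1h2bb, whose starts are 1213 bp apart, and Hist1h4a with Hist1h3a. The strand and start of Hist1h3a were not set in the reference table, so either end of that gene counted as its start. The peak over Hist1h3c and Hist1h2bb measured 2098 and 2316 bp with vehicle, then 2344 and 2067 bp with activin, and the annotation named it for the transcript AL590388.2, not for a histone gene. Other peaks merged in the activin libraries alone. Hist1h2ab and Hist1h3b, with starts 1257 bp apart, lay under 1 peak of 1762 and 1804 bp with activin, whereas in vehicle library 1 they had separate peaks of 465 and 552 bp. In vehicle library 2 Hist1h3b had a peak of 638 bp and Hist1h2ab none. Hist1h2ai, Hist1h2bl and Hist1h3h lay under a single peak of 2585 bp in activin library 1 only.

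The nearest-gene name could hide a covered gene. In vehicle library 1, 12 of 43 covered genes lay under a peak named for another gene, and 12 of 42, 15 of 43 and 14 of 43 in the other libraries. The peak over the H2B gene Hist1h2be, for example, was named Hist1h4d in vehicle library 1.

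Histone-named peaks over no histone start numbered 4, 11, 8 and 5. Of these 3, 8, 4 and 1 carried the name of the pseudogene Hist1h2al. Several peaks of that name held 0 high-quality reads, such as chr13:51266139-51266998 in vehicle library 2, with a −log10 q of 2.21. An intergenic peak at chr13:23930127-23931516, beside the testis gene Hist1h2ba, was present in all libraries at −log10 q values of 9.87 and 11.1 (vehicle) or 17.5 and 8.59 (activin). A transcript-end peak near Hist1h4c (chr13:23701213-23701422) was called in both activin libraries, with a −log10 q of 8.22 and 3.60, and in neither vehicle library. Likewise a peak near Hist3h2ba (chr11:58951332-58951687) was called only in the activin libraries, at 3.69 and 2.06. Other peaks were called in a vehicle library alone, such as the intronic peak named for Hist1h1t in vehicle library 2 (−log10 q 1.08). A call in one list and not in another was not tested as a difference in signal. The share of all regions called in the activin libraries alone was not computed.

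The comparison of activin with vehicle asked whether the opening at histone starts differed after 6 h of activin. No histone region passed limma's test, and most lay slightly higher in the activin libraries. It used 13871 autosomal regions with 1 peak in each library, on log2 of reads plus 1 per kb, centred on each library's median. Of 31 regions over histone starts 29 were tested, and the other 2 had several peaks in a library. The log2 change was above 0 in 25 of 29 regions, beside 48.9% of all regions, with a median of 0.18 against -0.0049 over all. In 17 of the 29 each activin value exceeded each vehicle value, beside 20.9% of all regions, and in 0 each lay below, beside 20.5%.

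By limma 0 of 29 had an adjusted p under 0.05, beside 0 of all 13871 (0%). At an unadjusted p under 0.05 there were 3 higher and 0 lower histone regions, beside 3.62% and 5.91% of all regions. The median centred log2 density of the histone regions was -0.49 and -0.44 with vehicle, and with activin -0.21 and -0.27. Other regions over a RefSeq start had a median change of 0.034 (6566 regions), and those among them within the histone regions' range of vehicle density and width one of 0.048 (2610 regions). Of these 2610 regions 61.5% had a change above 0, and in 28.6% each activin value exceeded each vehicle value. Neighbouring histone genes share a locus, so the histone regions are not independent.

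The Hist1h4h region (chr13:23530934-23531840) had the smallest p. Its peaks held 404 and 411 reads (vehicle) or 823 and 522 reads (activin). The centred log2 change was 0.33 ± 0.12 (SE, n = 2 libraries a group; limma adjusted p = 0.47). The peak shared by Hist1h2ae and Hist1h2bg had densities of 1.89 and 1.75 with vehicle, then 2.82 and 2.73 with activin, and a log2 change of 0.33 ± 0.12 (limma adjusted p = 0.48). At the linker gene Hist1h1c they were 2.05 and 1.69 against 3.07 and 2.62, a log2 change of 0.33 ± 0.13 (limma adjusted p = 0.49). In all 3 regions each activin library lay above each vehicle library on the centred scale. On the uncentred densities printed here the same held for 62.2% of all regions, so their separation alone says little.

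The regions with the smallest p on the lower side were close to 0. Hist1h2bh had densities of 1.82 and 1.88 with vehicle, then 2.47 and 1.82 with activin, and a centred log2 change of -0.080 ± 0.17 (limma adjusted p = 0.91). On the centred scale Hist4h4 stood at -0.022 ± 0.11 and Hist3h2ba at -0.021 ± 0.11 (limma adjusted p = 0.97 for each). The activin libraries overlapped the vehicle libraries at Hist1h2bh. Uncentred densities at Hist3h2ba were 2.70 and 2.30 with vehicle, then 3.11 and 2.84 with activin. These, like those of Hist4h4 given above, did not overlap, as in 62.2% of all shared regions. On the centred scale the groups overlapped at all 3 regions. The sign of all 3 was positive when reads were scaled to all high-quality reads.

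**Figure D5:**
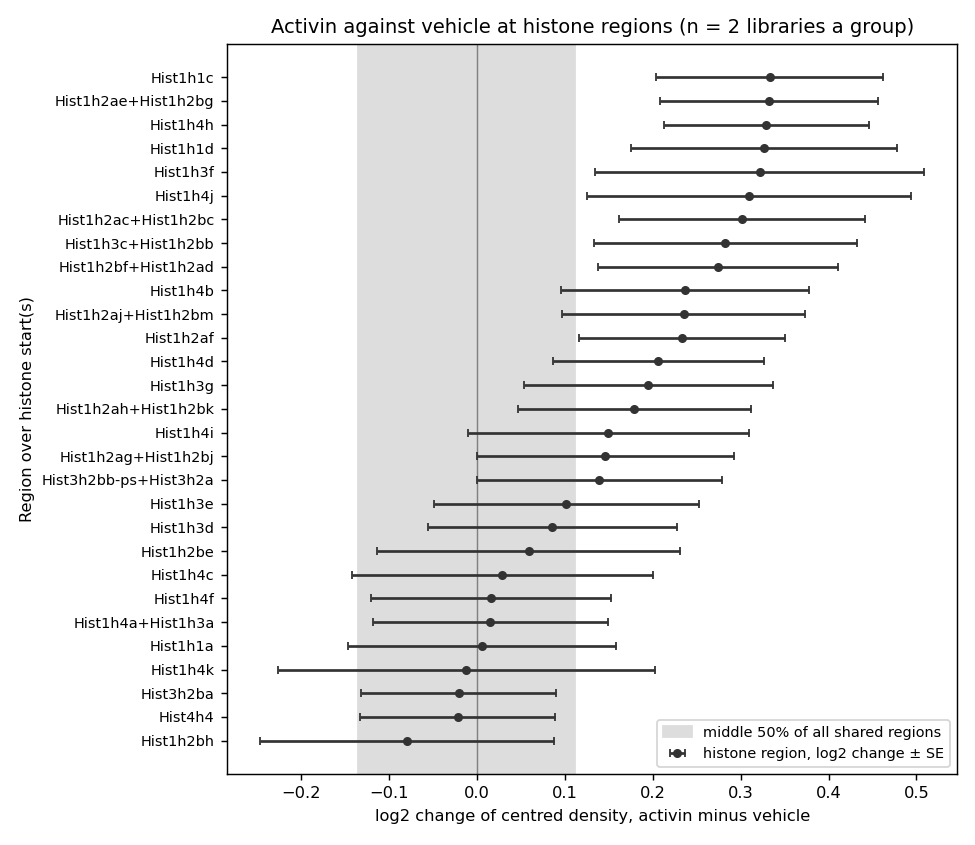
Centred log2 change of density (activin minus vehicle, ± SE from limma, n = 2 libraries a group) for the 29 tested regions over histone starts, with the middle 50% of all 13871 shared regions in grey. 25 regions lie above 0, and none passed the adjusted threshold.

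Scaling by the library's total of high-quality reads, and not by its median, moved the median of all regions by 0.27 on the log2 scale, and 4 of 29 histone regions, all higher, then passed beside 553 higher and 52 lower of all regions. Without activin library 1 the histone median was 0.11, and with any number of peaks summed per region 0.29. The start-site enrichment given above and the ratio of short to mononucleosomal fragments (2.95 and 3.07 with vehicle, then 3.48 and 3.49 with activin) moved with the groups. So did peak width, as the median region was 116% as wide with activin as with vehicle among the histone regions and 108% as wide over all regions. Their part in the result was not tested.

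Most genes that act on histone transcripts and proteins had their start under a peak in every library, which held for 49.3% of all protein-coding genes. Of 18 genes for histone transcription and 3′ processing, 15 had a start in the table and all 15 lay under a peak in every library. So did all 12 histone chaperone genes and 9 of 10 replication-independent histone genes with a start. No tested region passed limma's test in these lists (0 of 13, 10 and 7), and their median log2 changes were 0.087, -0.021 and 0.054. Lsm11, a subunit of the U7 particle that cuts histone transcripts, had densities of 3.10 and 2.64 with vehicle, then 4.52 and 4.80 with activin (log2 change 0.43 ± 0.10, limma adjusted p = 0.41). Npat had 4.72 and 4.07 against 6.42 and 6.52 (0.29 ± 0.092, limma adjusted p = 0.43). At both genes the uncentred densities of the groups did not overlap, as in 62.2% of all shared regions.

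The stem-loop protein gene Slbp had densities of 6.60 and 4.48 with vehicle, then 6.88 and 7.10 with activin (log2 change 0.087 ± 0.13, limma adjusted p = 0.86). H3f3a and H3f3b encode the same replacement histone H3.3. Their log2 changes were -0.19 ± 0.10 and 0.22 ± 0.10, with limma adjusted p-values of 0.58 and 0.53. H2afx had no start in the table and was not analysed here.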

How the data were processed

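ATAC-seq peaks were deposited per library. Bowtie2, MACS2 and HOMER, with GRCm38 and mm10, are named in the submitters' processing notes, without versions. Per the deposited lists, each peak has a fold over background (a ratio), the −log10 of p and q, and a whole-number score. Per the file headers, ataqv 1.3.1 gave the authors' read counts per autosomal peak. All values are deposited as made by the authors.

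Starts came from the RefSeq table (GRCm38.p6): 62 genes had a promoter entry, 5 took the start from the annotated distance, and for 3 either end counted. Peaks overlapping by at least 1 bp were merged across libraries; regions with 1 peak per library and a common part of at least 50% were tested with limma 3.58.1 (R 4.3.3, trend, Benjamini-Hochberg over all regions) on log2((reads + 1) per kb), centred. The script was checked on simulated data. Counts per library were compared by exact permutation (scipy 1.17.1). Groups came from sample titles.

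Named genes were all of Hist2 to Hist4; the highest and lowest density per type in Hist1; uncovered genes; genes sharing a peak in all libraries; and the 3 smallest p each way. Hist1h4d, Hist1h4n and the other sequences shown were chosen after their values were seen. Members and lists were chosen with earlier results of these data known. Alternatives are given at the end. Read totals set the precision, and no interval for counting error was computed.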

Additional observations from a re-analysis of the deposited data

How the results depend on the processing

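With 2 libraries a group the exact test cannot go below 0.333, so the counts per library carry no call. The difference in histone-named peaks (activin minus vehicle, -3) was 0.5 at a −log10 q of at least 2, -1 at one of at least 5 and -1 with each list cut to the length of the shortest, and ranged from -6 to 0 with 1 library left out, being 0 without vehicle library 2. The difference in covered starts (0.5) was 0 when a start within 100 bp counted and ranged from 0 to 1 with 1 library left out. The difference in shared peaks was 1 under every alternative run. Of all shared regions limma called 0; the count was 605 when scaled to all high-quality reads, 39 without division by length, 1 with a pseudocount of 10 and 4 with the replicate block, and ranged from 0 to 9 with 1 library left out (9 without activin library 2, 1 without activin library 1). Histone regions called were 4 when scaled to all high-quality reads and 0 under each other alternative. Their median log2 change (0.18) was 0.45 with that scaling, 0.25 without division by length and 0.29 with any number of peaks summed, and ranged from 0.11 to 0.26 with 1 library left out. The log2 change turned positive at Hist1h2bh, Hist4h4 and Hist3h2ba with that scaling (0.19, 0.25 and 0.25), without division by length (0.37, 0.18 and 0.19) and with peaks summed (0.027, 0.085 and 0.086). With 1 library left out it ranged from -0.26 to 0.10, from -0.099 to 0.056 and from -0.048 to 0.0062 at these 3. The causes were not tested. The labels do not say what same-numbered libraries share. Their deviations had a correlation of -0.025 over 13871 regions and -0.217 over the 29 histone regions, and no pairing was taken from them; with the replicate block the difference in histone-named peaks was -3, the histone median 0.18 and the histone regions called 0.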
